A study of Mus musculus with 8 samples.

Results

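The keratins are the filament proteins of epithelial cells, and 38 of the 19348 genes in the deposited tables were taken as keratins because their symbol was Krt followed only by a number. Krt79 was left out by the same rule, and Krt6a, Krt33a and Krt33b, whose symbols end in a letter, fall outside it. The 38 genes comprised 19 type I and 19 type II keratins. By the epithelium in which they are best known, 5 were grouped as simple epithelial keratins (Krt7, Krt8, Krt18, Krt19 and Krt20) and 33 as others, namely 6 basal, 9 suprabasal, 15 hair and 3 unclassed keratins.

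RNA-seq was performed on epididymal white adipose tissue (eWAT), the fat pad beside the epididymis, and on liver of male C57BL/6 mice. All mice were 12 weeks old, received normal chow and had fasted for 16 h. In each tissue there were 2 libraries labelled Crtc1-/-, from a whole-body CRISPR/Cas9 knockout line, and 2 labelled Crtc1+/+, from wild-type littermates, which gave 8 libraries. The homozygous mice came from intercrosses of heterozygotes, and the labels do not tell whether liver and eWAT libraries with 1 replicate number came from 1 mouse.

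Keratin filaments are built from pairs of an acidic type I and a basic type II protein, so each epithelium expresses at least a matched couple. Krt8 and Krt18 are the couple of simple, single-layered epithelia and the only keratins of normal hepatocytes, whereas Krt7 and Krt19 join them in ducts. Krt5 and Krt14 are the couple of basal cells in stratified and pseudostratified epithelia. Adipocytes do not build keratin filaments, and their intermediate filaments consist mainly of vimentin, but the mesothelium that covers visceral fat does contain Krt8, Krt18 and Krt19.

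All 38 symbols matched the RefSeq annotation of GRCm38.p6. The type I genes lay on chromosome 11, where 18 members spanned chr11:99232761-100269951, and the type II genes lay on chromosome 15, where 19 of them and the type I gene Krt18 spanned chr15:101348315-102032026. Krt8 and Krt18, the couple of simple epithelia, were neighbours separated by 23873 bp. Krt15 (chr11:100131759-100135949) and Krt19 (chr11:100140810-100145926) were neighbours separated by 4860 bp, and Krt17 (chr11:100256215-100261029) lay 48704 bp from Krt14 (chr11:100203162-100207510). The locus of Krt80 overlapped Gm35853 and Mir1941, and that of Krt222 overlapped Gm32385, so the reads of these 2 keratins could be shared with other transcripts. All 304 keratin counts were whole numbers, whereas between 5.44% and 9.98% of the values of a library over all genes were not whole.

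The 250 bases before the start site are shown for keratins on which the comparison of genotypes turned. Krt5, Krt7, Krt23 and Krt32 fell in eWAT under the label Crtc1-/-, and Krt8 and Krt18 did not pass the test there. The sequences come from RefSeq (GRCm38.p6), are written 5′ to 3′ on the strand of the gene, and end at the base before the start site. Capitals mark matches on either strand to TGACG (the core of the cyclic AMP response element), TATAAA (the TATA box), its variant ATAAAA, or the GC box GGGCGG.
Krt5, chr15:101712906-101713155, minus strand: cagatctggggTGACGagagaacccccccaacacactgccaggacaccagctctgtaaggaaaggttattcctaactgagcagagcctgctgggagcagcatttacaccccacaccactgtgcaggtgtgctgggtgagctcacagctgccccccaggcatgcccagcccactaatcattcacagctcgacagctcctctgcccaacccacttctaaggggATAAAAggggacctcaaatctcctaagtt
Krt7, chr15:101412153-101412402, plus strand: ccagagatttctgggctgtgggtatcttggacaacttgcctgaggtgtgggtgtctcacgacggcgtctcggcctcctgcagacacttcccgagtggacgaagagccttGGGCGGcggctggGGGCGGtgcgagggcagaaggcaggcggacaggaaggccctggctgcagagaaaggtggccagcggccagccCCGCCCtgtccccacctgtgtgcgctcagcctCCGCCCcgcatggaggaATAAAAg
Krt23, chr11:99493121-99493370, minus strand: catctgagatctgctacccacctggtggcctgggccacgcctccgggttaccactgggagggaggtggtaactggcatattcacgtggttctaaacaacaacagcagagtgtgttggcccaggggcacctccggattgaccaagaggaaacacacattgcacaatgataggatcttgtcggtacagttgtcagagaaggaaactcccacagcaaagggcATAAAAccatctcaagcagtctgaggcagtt
Krt32, chr11:100088270-100088519, minus strand: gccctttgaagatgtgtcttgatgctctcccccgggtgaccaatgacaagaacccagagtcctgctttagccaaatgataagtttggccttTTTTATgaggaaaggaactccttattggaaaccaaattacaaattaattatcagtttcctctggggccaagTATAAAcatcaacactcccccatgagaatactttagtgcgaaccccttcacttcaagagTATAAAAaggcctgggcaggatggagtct
Krt8, chr15:102004343-102004592, minus strand: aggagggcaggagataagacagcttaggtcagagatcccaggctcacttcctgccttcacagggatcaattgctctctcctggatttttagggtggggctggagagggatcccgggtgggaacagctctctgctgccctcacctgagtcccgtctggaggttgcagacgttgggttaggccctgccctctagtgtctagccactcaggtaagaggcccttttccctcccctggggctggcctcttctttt
Krt18, chr15:102027966-102028215, plus strand: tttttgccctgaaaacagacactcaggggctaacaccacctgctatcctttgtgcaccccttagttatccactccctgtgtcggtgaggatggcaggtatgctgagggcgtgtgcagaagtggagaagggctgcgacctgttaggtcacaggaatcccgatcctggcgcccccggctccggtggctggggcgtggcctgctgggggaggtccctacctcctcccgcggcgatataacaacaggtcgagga

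Crtc1 is a coactivator of CREB, which binds the cyclic AMP response element TGACGTCA. This element was found in 0 of the 24 keratin promoters in the RefSeq table and in 1.55% of all 32851 promoters of the same length, and its core TGACG was found in 3 (Krt5, Krt9 and Krt36) and in 17.8% of all. TATAAA was found in 11 of the 24 keratin promoters, against 12.4% of all promoters, and ATAAAA, which can overlap TATAAA by all but 1 letter, in 11 against 17%. In Krt5 the match to ATAAAA lay at bases -29 to -24 from the start site, in Krt23 at -31 to -26, and in Krt32 the nearest match to TATAAA lay at -29 to -24. Krt7 held 4 matches to the GC box GGGCGG, which occurred in 2 of the 24 keratin promoters (Krt7 and Krt75) and in 32.7% of all, and TGANTCA, the AP-1 motif, was in 0 of 24 against 6.75%. Krt8 and Krt18 held no match to any of these motifs, which says only that the letters are not in this window. Of the 24 table entries, 18 began at the end of the annotated gene. The other 6 began inside it, among them that of Krt14, 1480 bases inside, which is not printed.

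Libraries contained about 16560100 to 19721500 estimated counts, so 3 counts corresponded to 0.145 to 0.208 CPM (counts per 1000000, scaled by edgeR's TMM factors within each tissue), and intervals given here cover counting error only. Crtc1 was at 58.5 and 33.6 CPM in eWAT under the label Crtc1-/- and at 32.6 and 33.7 CPM in eWAT under the label Crtc1+/+ (log2 fold change 0.48 ± 0.37, SE, adjusted p = 0.396, edgeR), and at 22.1 and 18 against 11.7 and 9.86 CPM in liver (0.89 ± 0.27, adjusted p = 0.184). The counts of the targeted gene were therefore not lower under the label Crtc1-/-, and the genotype is given below as the label states it. The paper's guides targeted early exons, and a count over the whole gene also takes in the exons outside them. A complete knockout is reported in the paper from genotyping and Western blot. The eWAT libraries differed in the cell types they showed, with keratins removed from each marker list. The 24 epididymal epithelium markers, led by Gpx5, summed to 25.8 and 19.1 CPM in eWAT under the label Crtc1-/- and to 91390 and 107898 CPM in eWAT under the label Crtc1+/+, and 6 of them (Lcn6, Crisp4, Defb15, Defb41, Spink12 and Ros1) had no count in the former. The 15 adipocyte markers, led by Fabp4, summed to 52422 and 31148 against 2828 and 5065 CPM. The 13 hepatocyte markers, led by Alb, summed to 1087 and 124283 CPM in eWAT under the label Crtc1-/- and to 5386 and 685 CPM in eWAT under the label Crtc1+/+, so replicate 2 of eWAT under the label Crtc1-/- stood apart from the other eWAT libraries. Liver libraries held 187013 to 222589 CPM of these markers.

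**Figure D1:**
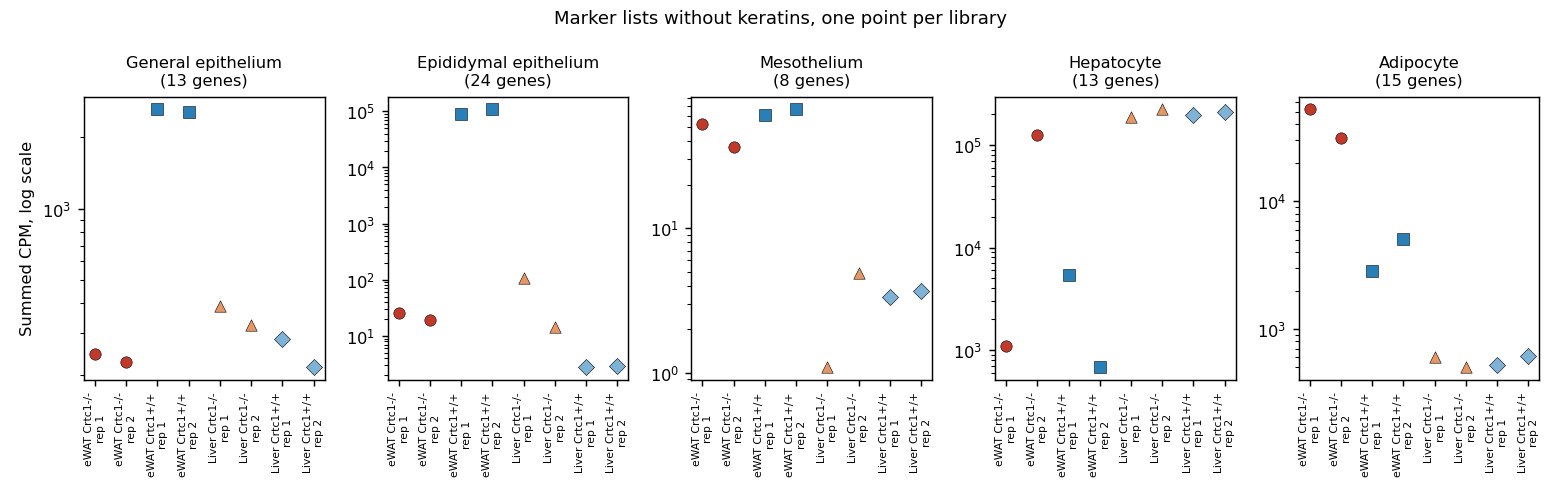
Summed CPM (log scale, each panel with its own range) of marker lists from which keratins were removed, with 1 point per library coloured by tissue and labelled genotype. The 24 epididymal markers sum to 91390 and 107898 CPM in eWAT under the label Crtc1+/+ and to 25.8 and 19.1 CPM in eWAT under the label Crtc1-/-, and the hepatocyte markers reach 124283 CPM in 1 eWAT library.

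The first question was whether keratins differed by labelled genotype in eWAT. Keratins of basal cells were nearly absent from eWAT under the label Crtc1-/- and abundant in eWAT under the label Crtc1+/+, whereas Krt8 and Krt18 remained measurable in all eWAT libraries. Of the 13 keratins that passed the filter on low counts, 7 fell (Krt5, Krt7, Krt14, Krt15, Krt17, Krt23 and Krt32) and 0 rose (edgeR quasi-likelihood test, adjusted p under 0.05), with 10 of the 13 lower and 1 higher (Krt222) at an unadjusted p under 0.05. Over all 15391 genes tested 12.2% were called, 5.54% lower and 6.65% higher. The 7 comprised 1 of the 4 simple keratins tested and 6 of the 9 others. Krt5, Krt15, Krt17, Krt23 and Krt32 passed the filter through the libraries labelled Crtc1+/+ only, and Krt222 through those labelled Crtc1-/- only, so these had to differ and their number is not evidence on the family. All 11 keratins with a negative fold change were lower in both libraries labelled Crtc1-/- than in both labelled Crtc1+/+, as were 35.4% of all genes, and Krt80 and Krt222 were higher in both, as were 31.3%. These calls rest on 2 libraries a group. Without replicate 1 of eWAT under the label Crtc1+/+ 0 keratins and 0 of all genes were called, with adjusted p between 0.143 and 0.255 for the 7 keratins, and without replicate 2 again 0 and 0, with adjusted p between 0.252 and 0.326. In these fits the log2 fold changes of the 7 stayed between -11.19 and -3.53.

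**Figure D2:**
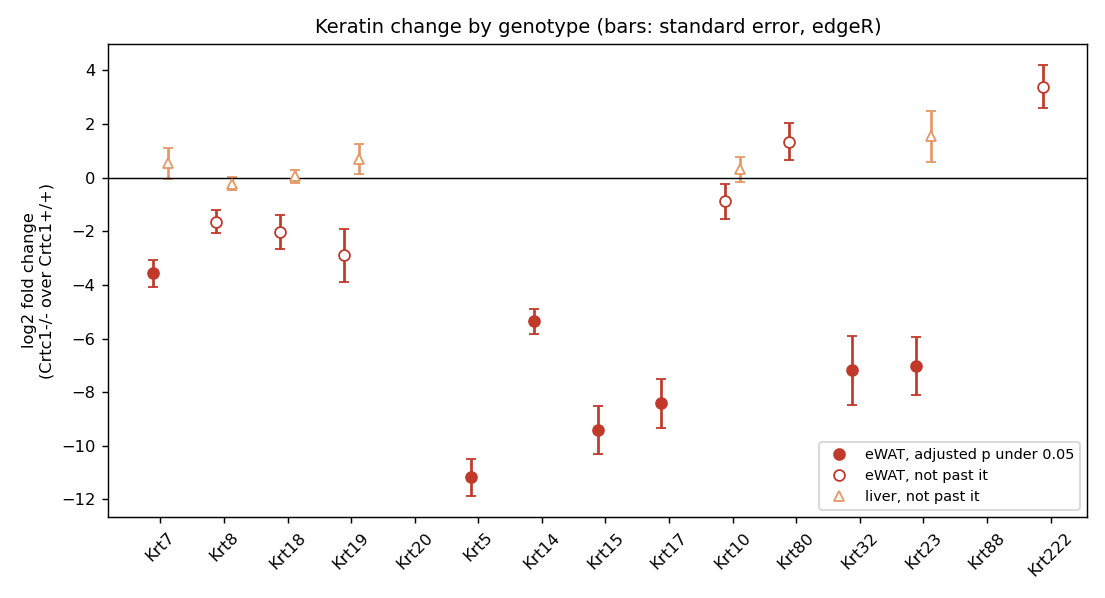
Log2 fold change of each named keratin, Crtc1-/- over Crtc1+/+ as labelled, with bars of 1 standard error from edgeR. Circles are eWAT, filled where the adjusted p is under 0.05, and triangles are liver. The 7 filled circles all lie at or below -3.56, and no liver point passes the threshold. Krt20 and Krt88 did not pass the filter and have no point.

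The simple epithelial couple was lower in eWAT under the label Crtc1-/- without passing the test. Krt8, the type II partner, was at 101 and 193 CPM in eWAT under the label Crtc1-/- (147 ± 65.4, SD, n = 2), against 501 and 411 CPM in eWAT under the label Crtc1+/+ (456 ± 63.8). Krt18, its type I partner, was at 77.6 and 248 CPM (163 ± 120) and at 707 and 619 CPM (663 ± 61.8). For both genes the groups did not overlap, and within the libraries labelled Crtc1-/- replicate 2 was the higher. The log2 fold change was -1.63 for Krt8 (SE 0.44, adjusted p = 0.0748, edgeR) and -2.03 for Krt18 (SE 0.63, adjusted p = 0.10). Replicate 2 is the library with 124283 CPM of hepatocyte markers. Per 1000 CPM of these markers it held 3.55 CPM of Krt8 and Krt18, against 3.06 to 3.65 CPM in the liver libraries and 164 to 1505 CPM in the other eWAT libraries. Without this library, which leaves 1 library labelled Crtc1-/-, the log2 fold change was -2.20 for Krt8 and -3.12 for Krt18. Without replicate 1 of that group instead, it was -1.23 for Krt8 and -1.41 for Krt18. The size of the difference therefore turned on 1 library.

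Krt19, the smallest keratin, which has almost no tail domain and is typical of ducts and mesothelium, was at 62.7 and 7.91 CPM in eWAT under the label Crtc1-/- and at 303 and 223 CPM in eWAT under the label Crtc1+/+. Within the label Crtc1-/- replicate 1 was well above replicate 2, and the groups did not overlap. The log2 fold change was -2.90 (SE 0.99, adjusted p = 0.12, edgeR). It was -5.04 (adjusted p = 0.00415) without replicate 1 and -2.09 (adjusted p = 0.0229) without replicate 2 of eWAT under the label Crtc1-/-, so the size of the difference turned on 1 library. These p-values take the spread from the Crtc1+/+ pair alone, since 1 library labelled Crtc1-/- was left. The 8 mesothelium markers summed to 52.3 and 36.7 against 61.1 and 66.2 CPM. Of 7 tested, 1 was called lower (Upk1b) and 0 higher, where 5.54% of all genes fell and 6.65% rose. Upk1b alone held 7.75 and 4.65 against 37.2 and 54 CPM of these sums. Of the 7, 5 had a positive fold change and 2 a negative one (list median 0.80, all genes -0.05). The 13 general epithelium markers summed to 244 and 227 CPM in replicates 1 and 2 under the label Crtc1-/-, but the members differed. Only Cldn3 was higher in replicate 2 (21.5 and 111 CPM). The others were higher in replicate 1, from Spint2 (126 and 96.6 CPM) to Epcam (20.6 and 0.417) and Cldn7 (16.5 and 0.972).

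Krt7, the type II keratin of ducts and glands, was the simple keratin that fell. It was at 7.20 and 3.26 CPM in eWAT under the label Crtc1-/- (5.23 ± 2.78, SD, n = 2), against 64.6 and 59.6 CPM in eWAT under the label Crtc1+/+ (62.1 ± 3.57). The groups were far apart compared with either spread. Its log2 fold change was -3.56 (SE 0.50, adjusted p = 0.0230, edgeR). Krt20, the keratin of intestinal epithelium and urothelial umbrella cells, had 8 and 4 counts against 8 and 10, and its groups overlapped.

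The basal couple was nearly confined to eWAT under the label Crtc1+/+ among the 8 libraries. Krt5, the type II keratin of basal cells, had 1 and 0 counts in eWAT under the label Crtc1-/- and 1766 and 1673 counts in eWAT under the label Crtc1+/+, equal to 85.1 and 86.8 CPM. From these sums the level in Crtc1+/+ was 2800 times that in Crtc1-/- (95% counting interval 502 to 110607). The fitted log2 fold change of -11.17 (SE 0.69, adjusted p = 0.0119, edgeR) depends on the prior count. Krt14, its type I partner, was at 1.87 and 0.972 CPM against 61.9 and 56.4 CPM, a log2 fold change of -5.36 (SE 0.48, adjusted p = 0.0162). Unlike Krt5, Krt14 kept 34 and 14 counts in the libraries labelled Crtc1-/-.

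Both type I keratins that accompany basal cells behaved like Krt5. Krt15, found in basal and stem cells of stratified epithelia, had 0 and 1 counts in eWAT under the label Crtc1-/- and 453 and 590 in eWAT under the label Crtc1+/+, a ratio of 849 (counting interval 152 to 33568; adjusted p = 0.0165, edgeR). Krt17, a keratin of basal and injured epithelium, had 1 and 0 counts against 271 and 236, a ratio of 413 (73.7 to 16334; adjusted p = 0.0173). No library labelled Crtc1-/- approached one labelled Crtc1+/+ for these genes. Krt16 and Krt42, the remaining basal members, had at most 1 count in any library. Summed over the 6 basal keratins, the level was 1.98 and 1.04 against 182 and 186 CPM, 122-fold lower by the group means. The basal keratins moved with the epididymal markers given above, and which tissue each eWAT sample held and its labelled genotype cannot be told apart in this design. In bulk RNA, fewer cells of a type and less keratin RNA per cell cannot be told apart either.

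Suprabasal and hair keratins were scarce in all groups. Krt10, the type I keratin of differentiating epidermis, was at 2.69 and 1.46 CPM in eWAT under the label Crtc1-/- and at 3.32 and 4.36 CPM in eWAT under the label Crtc1+/+ (log2 fold change -0.88 ± 0.65, SE, adjusted p = 0.372, edgeR). Krt80, a type II keratin associated with cell junctions, was at 11.3 and 3.82 against 2.89 and 3.06 CPM (1.35 ± 0.69, adjusted p = 0.235), with replicate 1 of eWAT under the label Crtc1-/- above the other libraries. Neither difference passed the test. Krt32, a hair cuticle keratin, had 0 counts in both libraries labelled Crtc1-/- and 22 and 18 counts in those labelled Crtc1+/+, so it was at least 10.9-fold lower against 3 counts over the group (adjusted p = 0.0457). Its call was lost without any one of the 4 eWAT libraries (adjusted p 0.0935 to 0.326) and with no filter on low counts (0.0789).

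Of the unclassed keratins, Krt23 fell and Krt222 was the higher under the label Crtc1-/-. Krt23, an acidic keratin found in several glandular epithelia and in diseased liver, had 1 and 11 counts in eWAT under the label Crtc1-/- and 939 and 1129 in eWAT under the label Crtc1+/+, or 0.0550 and 0.764 against 45.2 and 58.6 CPM. It fell with a log2 fold change of -7.02 (SE 1.08, adjusted p = 0.0266, edgeR). Without replicate 1 of eWAT under the label Crtc1-/- this was -6.07, and without replicate 2 it was -9.76, so its size rests on few counts. Krt222, a short keratin-like protein, was at 3.96 and 3.61 CPM in eWAT under the label Crtc1-/- and at 0.193 and 0.519 CPM in eWAT under the label Crtc1+/+. These groups did not overlap, and the log2 fold change of 3.39 (SE 0.79) had an adjusted p of 0.0573. Krt88 had 6 and 0 counts against 116 and 1, so 1 library labelled Crtc1+/+ held nearly all of its counts and it did not pass the filter.

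The remaining 23 keratins were not expressed at a level that could be compared. No count was found for Krt12, Krt75, Krt81 and Krt90 in any library, and 13 others had at most 3 counts in each. These 17 comprised 10 hair, 5 suprabasal and 2 basal keratins. Krt4, Krt31, Krt36, Krt78, Krt83 and Krt87 reached 4 to 10 counts in at least 1 eWAT library, the highest being Krt36, with 10 and 1 counts in eWAT under the label Crtc1-/- and 2 and 2 in eWAT under the label Crtc1+/+. At these depths a level below about 0.2 CPM was not detectable.

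**Figure D3:**
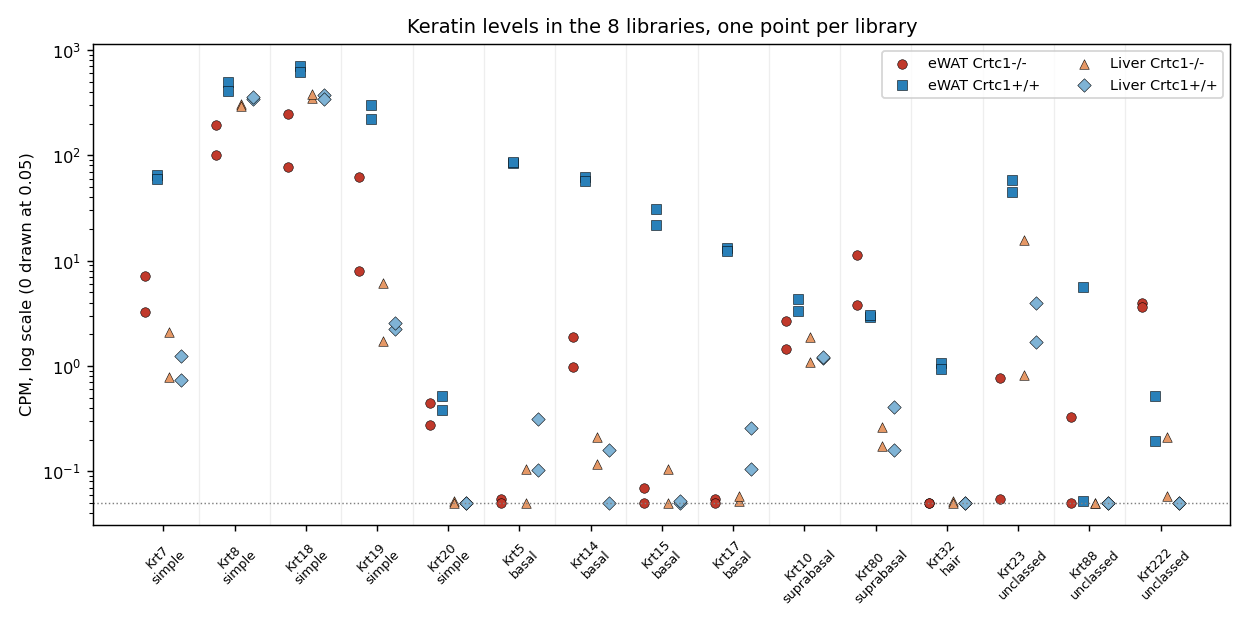
CPM (log scale) of the 15 named keratins in the 8 libraries, 1 point per library, with marker shape and colour for tissue and labelled genotype and counts of 0 drawn at 0.05. Krt5, Krt14, Krt15 and Krt17 reach 12.2 to 86.8 CPM in eWAT under the label Crtc1+/+ and stay below 2 CPM in the other 6 libraries, whereas Krt8 and Krt18 lie between 77.6 and 707 CPM in all 8.

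To compare levels between keratins, FPKM as deposited were used, since they account for transcript length. In eWAT under the label Crtc1+/+ the 38 keratins summed to 1554 and 1274 FPKM. Krt18 led with 640 and 544 FPKM, followed by Krt8 with 343 and 272 and Krt19 with 347 and 239, whose ranges overlapped. Krt7 (50.9 and 45.5 FPKM), Krt14 (50.1 and 43.5), Krt5 (47.2 and 46.6) and Krt23 (36.8 and 46.3) came next, where Krt7, Krt14 and Krt5 had overlapping ranges and Krt23 overlapped with Krt7 and Krt14 but not with Krt5, followed by Krt15 (15.7 and 21.4) and Krt17 (10.53 and 9.57). The couple of Krt5 and Krt14 was present in near-equal amounts, with a ratio of Krt14 to Krt5 of 1.06 and 0.932. In eWAT under the label Crtc1-/- the sum was 198 and 266 FPKM. There Krt19, Krt18 and Krt8 were near equal in replicate 1 (63.4, 60.8 and 59.7 FPKM), whereas Krt18 and Krt8 (160 and 94.4 FPKM) stood far above Krt19 (6.32 FPKM) in replicate 2.

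Simple keratins made up most of the keratin FPKM in every library. Their share was 95.4% and 98.5% in eWAT under the label Crtc1-/-, 88.8% and 86.4% in eWAT under the label Crtc1+/+, and 97.4% to 99.6% in liver. The basal share was 0.822% and 0.315% in eWAT under the label Crtc1-/- and 7.96% and 9.5% in eWAT under the label Crtc1+/+. Krt8 and Krt18 together took 60.8% and 95.3% in eWAT under the label Crtc1-/-, 63.2% and 64.1% in eWAT under the label Crtc1+/+, and 97.0% to 99.0% in liver. In this respect replicate 2 of eWAT under the label Crtc1-/- lay near the liver libraries and replicate 1 near eWAT under the label Crtc1+/+. Summed CPM gave the same order: the simple keratins were at 249 and 452 against 1576 and 1314 CPM (log2 ratio of means -2.04) and the other 33 at 21.3 and 11 against 242 and 255 CPM (-3.94). These sums describe the libraries and were not tested.

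**Figure D4:**
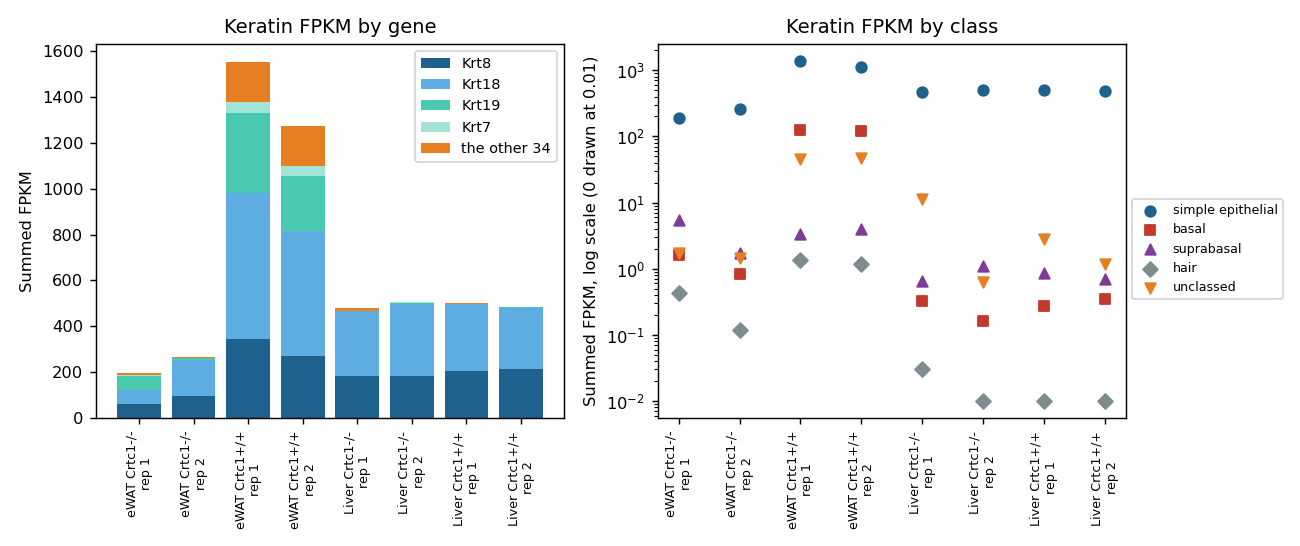
Left, FPKM stacked for Krt8, Krt18, Krt19, Krt7 and the other 34 keratins in each of the 8 libraries; right, FPKM summed by keratin class on a log scale, with sums of 0 drawn at 0.01. The total is 1554 and 1274 FPKM in eWAT under the label Crtc1+/+ and 198 to 507 FPKM in the other libraries, and simple keratins exceed each other class in every library.

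Type I exceeded type II keratins in all libraries. The ratio of summed FPKM was 1.87 and 1.74 in eWAT under the label Crtc1-/-, 2.44 and 2.48 in eWAT under the label Crtc1+/+, 1.60 and 1.76 in liver under the label Crtc1-/-, and 1.46 and 1.27 in liver under the label Crtc1+/+. For the obligate couple alone, the ratio of Krt18 to Krt8 was 1.02 and 1.69, then 1.87 and 2.0 in eWAT, and 1.53 and 1.73, then 1.44 and 1.26 in liver, in the same order of groups. Both ratios were higher in eWAT under the label Crtc1+/+ than in any other library. With 2 libraries a group, the smallest 2-sided permutation p for such a ratio is 0.333, so no test was made. The ratio of Krt19 to Krt8 was 1.06 and 0.0669 in eWAT under the label Crtc1-/-, 1.01 and 0.876 in eWAT under the label Crtc1+/+, and 0.00900 to 0.0382 in liver.

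**Figure D5:**
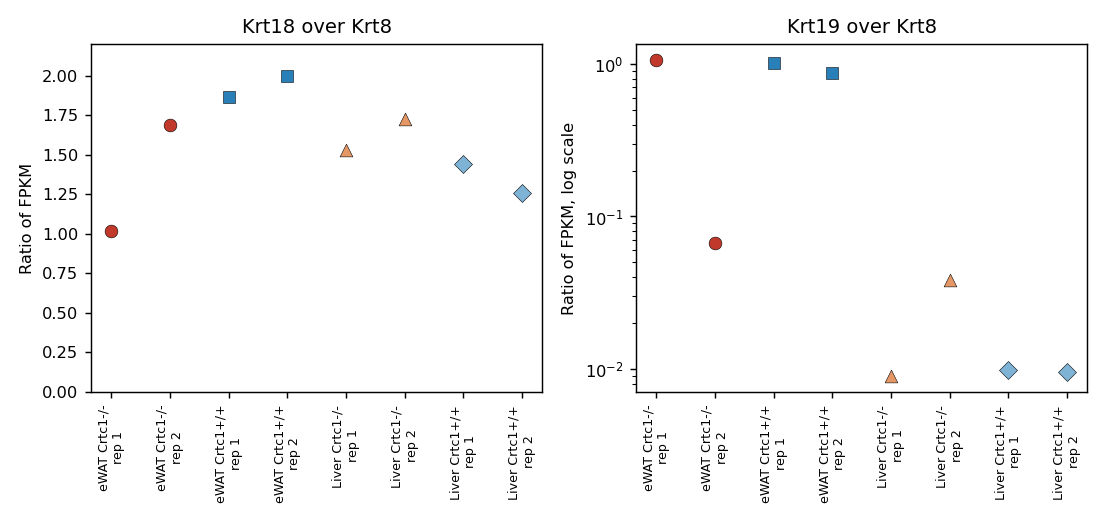
Ratios of FPKM within each library, 1 point per library: Krt18 over Krt8 on a linear axis from 0 and Krt19 over Krt8 on a log axis. Krt18 over Krt8 lies between 1.02 and 2.0, whereas Krt19 over Krt8 is near 1 in 3 eWAT libraries and 0.0669 in replicate 2 of eWAT under the label Crtc1-/-.

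Genes that anchor keratins or accompany them in epithelia were read from lists in the same eWAT comparison. Among 20 tested genes of desmosomes, hemidesmosomes and plakins, 3 fell and 1 rose (list median -1.30, all genes -0.05), where 5.54% of all genes fell and 6.65% rose. Those that fell were Pkp1, a desmosomal plaque protein (log2 fold change -6.86), Col17a1, the hemidesmosomal collagen (-5.87), and Dsp, which ties keratins to desmosomes (-3.81, with 12.5 and 7.15 against 91.4 and 185 CPM). Pkp1 and Col17a1 were near 0 under the label Crtc1-/- and passed the filter through the label Crtc1+/+, so they had to be lower. Jup, plakoglobin, rose by 1.97 (799 and 574 against 176 and 173 CPM). The integrins of hemidesmosomes, Itga6 and Itgb4, did not pass the test, with log2 fold changes of 0.76 and 0.16. Of 11 other intermediate filament genes, 1 rose and 0 fell (list median -0.73), near the 6.65% of all genes that rose: Vim, the filament of mesenchymal cells, was at 1179 and 613 against 176 and 144 CPM (2.48, adjusted p = 0.0385, edgeR).

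For the counts that follow, 5.54% of all genes tested in eWAT fell and 6.65% rose. Of 15 epithelial transcription factors tested, 5 fell and 0 rose (list median -3.87). Tfap2c, Grhl2, Tfap2a and Elf5 were at or near 0 under the label Crtc1-/- and passed the filter through the label Crtc1+/+, so they had to be lower and the count is a description. The largest differences were those of Tfap2c (-9.62, a fitted value with no count in Crtc1-/-), Grhl2 (-9.30, from 30.9 and 53.5 CPM in eWAT under the label Crtc1+/+ to 0.110 and 0 CPM) and Tfap2a (-8.39). Elf5 and Trp63 also fell, and Trp63, which specifies basal cells, was at 0.824 and 1.87 against 13.5 and 28.3 CPM (-3.96, adjusted p = 0.0323, edgeR). Of 4 basal cell markers outside the keratins 2 fell (Trp63 and Col17a1; list median -1.90), of 13 general epithelium markers 7 fell (sums 244 and 227 against 2610 and 2542 CPM; list median -4.53), and of 6 cholangiocyte markers 1 fell (Cldn4; list median -4.61). All 24 epididymal markers fell, with a median of -13.04, or -12.31 with the genes at 0 set to their bound. Most of these markers were at or near 0 under the label Crtc1-/- and passed the filter through the label Crtc1+/+. They had to be lower, and their number is a description. Of 15 adipocyte markers 9 rose (median 3.65), and of 13 hepatocyte markers 0 passed the test (median 4.30). Of 6 cornified envelope genes tested, Spink5 (-9.86) and Lor (-3.48) fell and Cdsn rose by 5.76 (list median -3.40, or -3.31 with the gene at 0 at its bound). Both skin and hair genes tested, Tchh and Lor, fell, and Tchh, trichohyalin, was at 0.110 and 0 against 7.13 and 20.7 CPM. Pkp1, Col17a1, Spink5, Lor and Tchh were likewise near 0 under the label Crtc1-/- and passed the filter through the label Crtc1+/+. The part of these cells in the keratin differences was not tested.

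In liver, 0 of the 6 keratins tested were called by labelled genotype in edgeR's quasi-likelihood test, and 0 had an unadjusted p under 0.05. Of all 11707 genes tested 0.0854% were called, 0.0256% lower and 0.0598% higher. DESeq2 also called 0. Krt8 was at 305 and 295 CPM in liver under the label Crtc1-/- and at 341 and 361 CPM in liver under the label Crtc1+/+, and its groups did not overlap (both lower in 26.4% of all genes). Its log2 fold change was -0.23 (SE 0.24, adjusted p = 0.649). Krt18 was at 352 and 386 against 371 and 343 CPM, with overlapping groups (0.05 ± 0.24, adjusted p = 0.939). The summed simple keratins were at 660 and 689 against 715 and 708 CPM.

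Duct keratins and Krt23 varied between liver libraries. Krt19, a cholangiocyte keratin, was at 1.73 and 6.13 CPM in liver under the label Crtc1-/- and at 2.26 and 2.57 CPM in liver under the label Crtc1+/+ (log2 fold change 0.69 ± 0.55, SE, adjusted p = 0.527, edgeR). Krt7 was at 0.786 and 2.10 against 1.23 and 0.735 CPM (0.54 ± 0.57, adjusted p = 0.645). In both genes replicate 2 of liver under the label Crtc1-/- was the highest of the 4 libraries. Without replicate 1 of that group the log2 fold change was 1.35 for Krt19 and 1.10 for Krt7. Without replicate 2 it was -0.49 for Krt19 and -0.33 for Krt7, so the direction rests on 1 library. Krt10 was at 1.10 and 1.87 against 1.18 and 1.21 CPM (0.31 ± 0.46, adjusted p = 0.760).

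Krt23 was at 15.6 and 0.817 CPM in liver under the label Crtc1-/- and at 3.95 and 1.68 CPM in liver under the label Crtc1+/+, from 298, 14, 77 and 32 counts. The libraries labelled Crtc1-/- lay on either side of those labelled Crtc1+/+. Its log2 fold change was 1.55 (SE 0.95, adjusted p = 0.415, edgeR), and it became 2.46 (adjusted p = 0.0119) without replicate 2 and -1.76 (adjusted p = 0.0470) without replicate 1 of liver under the label Crtc1-/-, so its direction rests on 1 library. These p-values too come from 1 library against the spread of a pair. Replicate 1 also held 108 CPM of epididymal markers, against 2.82 to 14.6 CPM in the other liver libraries. Per 1000 CPM of these markers it held 145 CPM of Krt23. This ratio was 55.8 in replicate 2 of that group and 1400 and 582 in liver under the label Crtc1+/+. In eWAT it was 2.13 and 40 under the label Crtc1-/- and 0.495 and 0.543 under the label Crtc1+/+. The part of epididymal cells in Krt23 was not tested. Without replicate 1 of liver under the label Crtc1-/- the summed other keratins turned from a log2 ratio of 1.07 to -0.68. Basal keratins were at the floor in liver, with at most 6 counts of Krt5, 4 of Krt14, 2 of Krt15 and 5 of Krt17 in a library. Krt222 had 4 and 1 counts against 0 and 0, at least 1.77-fold higher against 3 counts over the group.

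Whether the genotype difference itself differed between tissues was tested by the interaction of tissue and labelled genotype in all 8 libraries. Of the 13 keratins tested, 6 were called, each with a lower change in eWAT than in liver (Krt5, Krt7, Krt14, Krt15, Krt17 and Krt23), against 6.94% of all 15587 genes, 3.16% lower and 3.78% higher. Krt5, Krt15 and Krt17 entered this test through the eWAT libraries labelled Crtc1+/+ only, so the number called is not evidence on the family. The difference was -4.21 on the log2 scale for Krt7 (SE 0.75, adjusted p = 0.0239, edgeR), the gene of these with the smallest difference. Krt5, Krt14, Krt15 and Krt17 were near 0 in liver of either label, so their interaction rests on the difference in eWAT. For Krt8 the interaction was -1.45 (SE 0.61, adjusted p = 0.184) and for Krt18 -2.10 (SE 0.82, adjusted p = 0.162), and neither passed the test. Without either eWAT library labelled Crtc1+/+, or either liver library labelled Crtc1+/+, 0 keratins were called, and without either liver library labelled Crtc1-/- 1 was (Krt7, adjusted p = 0.0486, without replicate 1, and Krt23, adjusted p = 0.0424, without replicate 2).

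Finally, eWAT was compared with liver within each label. Within Crtc1+/+, 10 of 12 keratins tested were called, 9 higher and 1 lower in eWAT, where 59.8% of all genes were called, 36.7% higher and 23.1% lower. Krt5, Krt14, Krt15, Krt17, Krt32 and Krt80 had at most 8 counts in each liver library labelled Crtc1+/+, so they passed the filter through eWAT and had to be higher there, and nothing is read from the number called. Krt15 (log2 difference 8.49 ± 0.71, SE), Krt14 (8.20 ± 0.65), Krt5 (7.37 ± 0.43) and Krt19 (5.46 ± 0.30) were among the 9, with adjusted p of at most 0.000498 (edgeR), and Krt80 had the smallest difference of them (2.07 ± 0.67, adjusted p = 0.0403). Krt8 was lower in eWAT under TMM (-0.92 ± 0.29, adjusted p = 0.0349) and Krt18 did not pass the test (-0.41 ± 0.29, adjusted p = 0.261). Under scaling by library size these became 0.57 and 1.08, and the median of all genes moved from 0.48 to 1.96, so the order of the tissues for this couple depends on the scaling. Without either liver library labelled Crtc1+/+ 7 keratins were called, and the calls of Krt8 (adjusted p 0.159 and 0.175), Krt32 and Krt80 were lost. Per length, the couple summed to 982 and 816 FPKM in eWAT and to 496 and 481 FPKM in liver under the label Crtc1+/+.

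Within Crtc1-/-, 3 of 9 keratins tested were called, where 18.5% of all genes were, 16.2% higher and 2.24% lower. Krt80 and Krt222 had at most 5 counts in each liver library labelled Crtc1-/- and passed the filter through eWAT, so nothing is read from this number either. Krt80 (3.77 ± 0.76, SE) and Krt222 (3.47 ± 0.70) were higher in eWAT, and Krt8 was lower (-2.28 ± 0.53, adjusted p = 0.0468, edgeR), with a smaller difference of -1.25 (adjusted p = 0.0862) under scaling by library size. Without replicate 2 of eWAT under the label Crtc1-/-, the library with hepatocyte markers, the log2 difference of Krt8 was -2.99. Without either liver library labelled Crtc1-/-, 0 keratins and 0 of all genes were called. Krt5, Krt15 and Krt17 were not tested here because they were near 0 in both tissues. The couple summed to 121 and 254 FPKM in eWAT and to 467 and 497 FPKM in liver.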

How the data were processed

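Gene-level values of 8 libraries (4 eWAT, 4 liver) were analysed. The authors deposited estimated counts per gene, not normalized, and FPKM, scaled by transcript length and library total; per the labels, HISAT, Bowtie2 and build GRCm38.p6 were used, and the counting tool, annotation and strand setting are not given in the sources used here. Counts were rounded, filtered with filterByExpr (minimum count 10), scaled by TMM and tested with edgeR 4.0.16 (quasi-likelihood, R 4.3.3) in each comparison, with p adjusted by Benjamini-Hochberg over every gene tested. Standard errors are the log2 fold change over the square root of the F statistic. Calls required an adjusted p under 0.05. The paper's limma test on normalized values was an alternative (limma 3.58.1), as were DESeq2 1.42.0, other filters and scalings, removal of epididymal markers, all libraries in 1 fit, a replicate block and each library left out, where the lone library of a group is assumed to vary like the other groups. Ratios of groups with 1 to 3 counts have exact 95% counting intervals. Simple epithelial keratins, keratins with a group mean of at least 1 CPM and called keratins were named. Of the lists, up to 3 called genes with the largest change and up to 3 of the most abundant markers were named; Itga6, Itgb4, Elf5, Trp63 and the genes at 0 were named after their values were seen. The members, classes and lists were chosen with earlier results of these data known, and the motifs after the promoters were read. A gene of these lists is not reported here and was left out of their counts. The tests were tested on simulated data.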

Additional observations from a re-analysis of the deposited data

Results flagged for a closer look

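For 6 keratins the difference between labelled genotypes differed between eWAT and liver by the interaction test, each with a more negative change in eWAT. On the log2 scale the difference was -9.31 for Krt5, -4.21 for Krt7, -6.51 for Krt14, -10.37 for Krt15, -6.76 for Krt17 and -8.65 for Krt23. In eWAT Krt5 and Krt17 had 1 count and Krt15 had 1 count over both libraries labelled Crtc1-/-, and in liver none of Krt5, Krt14, Krt15 and Krt17 exceeded 6 counts in a library, so these fitted values depend on the prior count. Krt23 in liver rests on 298 counts in 1 library. The epididymal markers, at 91390 and 107898 CPM in eWAT under the label Crtc1+/+ and at most 108 CPM elsewhere, moved with all 6, and their part was not tested.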

How the results depend on the processing

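In eWAT 11 keratins were called by DESeq2 (4620 of all genes), 11 with all 8 libraries in one fit and 0 with the replicate number as a block (0 of all genes), and each library left out gave 0 to 9. In the block, which the labels do not establish as a pairing (correlations of same-numbered deviations 0.03 to 0.12), the 7 called keratins had adjusted p of 0.0543 to 0.105. The joint fit of all 8 libraries called 3861 of 15587 genes by genotype in eWAT. Between tissues within Crtc1-/-, DESeq2 called 6510 of 13458 genes, the block 1296, and limma 958 and 1675 with pseudocounts of 1 and 0.1. The joint fit called 4330 of 15587 genes there, and the interaction with the block 1746 of 15587. The keratin counts that follow are therefore a description and not evidence on the family. Within Crtc1-/- the tissues gave 5 calls by DESeq2, 0 by limma with either pseudocount, 1 with the block and 5 in the joint fit, and 0 to 6 with a library left out. The interaction gave 3 with the block and 0 to 7 with a library left out. Liver gave 0 to 2 and the tissues within Crtc1+/+ 7 to 11 with a library left out. The summed other keratins in eWAT were at -4.71 by FPKM and -4.50 to -3.54 with a library left out, the simple ones at -2.54 to -1.68. In liver the simple sum was -0.021 under library-size scaling, 0.0092 under upper-quartile scaling, -0.013 by FPKM and -0.11 to -0.05 with a library left out, and the other sum was -0.68 to 1.83. Single genes reversed as follows. By limma with pseudocounts of 1 and 0.1, Krt18 in liver was -0.10 and -0.10; within Crtc1+/+ Krt8 was 0.36 and 0.36, Krt18 0.82 and 0.82, Krt10 -0.55 and -1.09, and Krt80 -0.14 and -0.35; the interaction of Krt222 was 0.53 and 1.64. Under library-size scaling Krt8 was 0.57 and Krt18 1.08 within Crtc1+/+, and Krt10 0.35 within Crtc1-/-. With a library left out, liver ranges were -0.33 to 1.10 (Krt7), -0.12 to 0.65 (Krt10), -0.028 to 0.12 (Krt18), -0.49 to 1.35 (Krt19) and -1.76 to 2.46 (Krt23), and within Crtc1-/- -0.024 to 1.39 (Krt7) and -0.19 to 2.96 (Krt19). The cause of these changes was not tested. Library-size scaling moved the median of all genes by -0.30 in eWAT and by 1.48 between tissues within Crtc1+/+. No keratin tested in eWAT changed direction under any alternative run. Of the values for single keratins, 612 kept direction and side of the threshold, 95 lost it, 36 gained it and 24 reversed.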
